A study of Mus musculus with 4 samples.

Results

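Cbln1-positive reticular stromal cells are the CXCL12-abundant reticular (CAR) cells of bone marrow in which a transcript of Cbln1 was counted. They were chosen by their counts from barcodes with at least 1000 UMIs (unique molecular identifiers, 1 for each captured transcript), at least 800 genes, under 15% mitochondrial UMIs and under 5% hemoglobin UMIs. The gate of reticular cells required at least 1 UMI each of Lepr and Adipoq, at least 10 of Cxcl12, none of Cdh5 or Ptprc, and under 200 UMIs of Bglap per 10000 UMIs. Of 24739 filtered barcodes 4315 lay in this gate, and the 1256 of these with at least 1 Cbln1 UMI are described here, beside the 3059 with none. Mutant library 1 held 145 of them, mutant library 2 held 170, and the 2 control libraries held 487 and 454.

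The study removed the Hippo pathway kinase gene Lats2 from endothelial cells (ECs) and profiled lineage-depleted stroma from the metaphysis of femur and tibia by droplet-based scRNA-seq. The mutants (Lats2iΔEC, labelled Lats2iECKO) carried Cdh5(PAC)-CreERT2, which is driven by an endothelial promoter, and loxP-flanked Lats2, and were given tamoxifen weeks before analysis. The controls, labelled untreated, were littermates without Cre that by the study's methods received the same tamoxifen. There were 2 libraries of each genotype, all from mice 12 weeks old on a C57BL/6 background. The study as a whole used both sexes, and the sex of each library is not given here.

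CAR cells are perivascular stromal cells that supply the marrow with CXCL12 and stem cell factor (Kitl), and they include precursors of marrow fat and bone. Cbln1 encodes cerebellin 1, a secreted protein of the C1q family that in the cerebellum bridges presynaptic neurexins and the delta glutamate receptors of Purkinje cells. The floxed allele was removed through an endothelial promoter, so reticular cells were not the cells targeted. Cre-ERT2 had 0 UMIs in the members of both mutant libraries and 1 UMI in the Cbln1-negative barcodes of each. The controls, which carry no Cre, had 0 in both classes. Lats2 (chromosome 14 of GRCm39, 57926960 to 57995845) stood at 75.1 and 90.4 CPM (UMIs of a gene, scaled to the same total in every sum of barcodes) in the mutant members and at 92.2 and 100 CPM in the control members. Its log2 fold change was -0.17 (standard error 0.124, adjusted p = 0.397 in edgeR's quasi-likelihood test).

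The libraries held 69636600 to 85899079 UMIs, and the median member held 6362 to 6610 UMIs and 2907 to 2966 genes. Between 2.85% and 3.77% of the UMIs of the median member were mitochondrial, with both mutant libraries (3.70% and 3.77%) above both controls (2.85% and 2.96%). No barcode sequence was shared between the members of different libraries, and 4 were shared between the gates of the 2 control libraries. Transcripts free in solution were estimated at 1.67% to 1.97% of the members' UMIs from cartilage genes. The doublet score marked 5 and 8 members in the mutants (3.45% and 4.71%) and 60 and 45 in the controls (12.3% and 9.91%).

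Markers of CAR cells outside the rule were present in most members. Ebf3, a transcription factor that maintains CAR cells, had a UMI in 98.6% to 99.8% of members, Kitl in 99.6% to 100% and Foxc1, another CAR cell transcription factor, in 83.5% to 87.7%. Igfbp5, an insulin-like growth factor binding protein, was counted in 98.6% to 99.8% of members and Negr1, a neural adhesion molecule of the IgLON family, in 83.4% to 87.3%. Adh1, an alcohol dehydrogenase that can oxidize retinol, was counted in 23.4% to 29.1%, and Aldh1a2, which makes retinoic acid, in 37.4% to 54.7%. Of the Cbln1-negative barcodes, 97.7% to 98.6% had a UMI of Igfbp5 and 72.9% to 82.8% one of Negr1. Adh1 was counted in 12.7% to 18.1% of them, Aldh1a2 in 33.3% to 45.8%, Ebf3 in 95.5% to 99.4% and Kitl in 98.6% to 99.7%. Markers listed for osteo-CAR or metaphyseal stroma were present too, with a UMI of Spp1 in 78.2% to 91.4% of members, Limch1 in 44.1% to 50.4%, Wif1 in 17.1% to 37.2%, Alpl in at most 17.8% and Kcnk2 in 8.28% to 16.5%. Hs3st5 was counted in at most 1.85% and Postn in at most 2.76%. Summed markers of osteoblasts stood at 2998 to 4349 CPM and those of chondrocytes at 851 to 3336 CPM in the members, against 15.7 to 22.8 CPM for endothelial and 2.51 to 16.3 CPM for leukocyte markers. These sums leave out Cdh5, Ptprc, Bglap, Bglap2 and Bglap3. The gate selected against endothelial cells and leukocytes by requiring no Cdh5 or Ptprc, so their low sums are a description.

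Cbln1 (chromosome 8 of GRCm39, 88195033 to 88199261) was counted mostly in the reticular gate. Of all filtered barcodes with a Cbln1 UMI, 93.5% and 89.0% in the mutant libraries and 89.9% and 92.3% in the controls lay in it. In barcodes gated for endothelial, cartilage, osteoblast or smooth muscle genes the share with a Cbln1 UMI was measured between 0% and 0.457%, at median depths of 5713 to 20109 UMIs against 5962 to 6401 in the reticular gate. Barcodes with at least 5 UMIs of Wif1 and none of Adipoq, which stand for metaphyseal stroma, had Cbln1 in 0.111% to 0.359%. The leukocyte gate had none in 11 to 51 barcodes a library, and 3 counts, the limit used for a count of 0, would be 5.88% to 27.3% of them. The same limit is 2.86% and 3.41% in the mutant osteoblast gates and up to 1.46% in smooth muscle gates with no Cbln1. It is 0.510% to 0.850% in the endothelial gates with no Cbln1 and 0.704% in the osteoblast gate of control library 1. Barcodes with at least 10 Cxcl12 UMIs but no Adipoq had Cbln1 in 0% and 3.51% in the mutants and in 8.68% and 4.95% in the controls. The limit for the 0%, which came from 94 barcodes, is 3.19%.

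**Figure D1:**
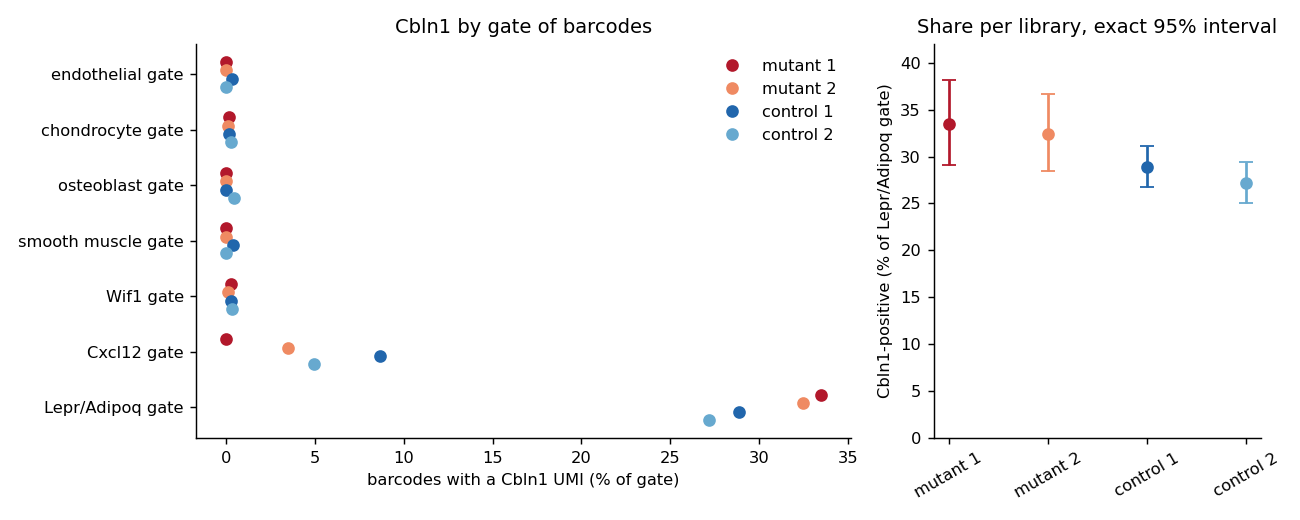
Left, percent of barcodes with a Cbln1 UMI in each gate, 1 point per library; the Wif1 gate has at least 5 Wif1 UMIs and no Adipoq, and the Cxcl12 gate at least 10 Cxcl12 UMIs and no Adipoq. Right, percent of the Lepr/Adipoq gate with a Cbln1 UMI, with exact 95% binomial intervals. The Lepr/Adipoq gate holds 27.2% to 33.5% positives, and the measured share is at most 0.457% in the endothelial, cartilage, osteoblast and smooth muscle gates.

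Members made up 33.5% (95% Clopper-Pearson interval 29.1% to 38.1%) and 32.4% (28.4% to 36.6%) of the gate in the mutant libraries, and 28.9% (26.7% to 31.1%) and 27.2% (25.0% to 29.4%) in the controls. Both mutant libraries lay above both controls, and the SD within a genotype was 0.739 and 1.20 percentage points (n = 2). The difference of 4.95 percentage points gave p = 0.333 in a 2-sided exact permutation test, the smallest p that 2 libraries against 2 allow. With each barcode thinned to 3000 UMIs, which left out 37 to 106 barcodes a library, the shares were 21.6% and 21.2% against 18.0% and 17.1%. A barcode with no Cbln1 UMI can therefore be a cell whose transcripts were missed. The intervals cover counting error only.

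Set against all filtered barcodes, members were the smaller population in mutants, with 2.82% and 2.88% against 7.09% and 6.64%, a difference of -4.01 percentage points (exact permutation p = 0.333). The whole gate moved with it, at 8.44% and 8.88% of the mutant barcodes and 24.6% and 24.4% of the control barcodes. The shares of cells within a library sum to 100%, so fewer reticular cells and more of other types cannot be told apart.

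The gate itself did not use Cbln1, so its level over the whole gate could be tested between genotypes. Cbln1 stood at 88.5 and 96.1 CPM in the mutant gates and at 75.7 and 67.6 CPM in the controls, and the 2 groups did not overlap. The log2 fold change was 0.41 (standard error 0.0850, adjusted p = 0.00172, edgeR), in a fit in which 15.9% of the 5338 genes tested were higher at an adjusted p of at most 0.05. Without the second control library it was 0.33, with an adjusted p of 0.0776. In the members alone, where at least 1 UMI was required, Cbln1 stood at 264 and 277 CPM in mutants and 260 and 246 CPM in controls, given as a description.

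At the threshold of the rule, 703 barcodes held exactly 1 Cbln1 UMI and 3059 held none, while 290 held 2 and 263 held 3 or more. Igfbp5 stood at 4462 ± 842 CPM (SD over 4 libraries) in barcodes with none, 5797 ± 938 with 1, 6968 ± 1240 with 2 and 7232 ± 1188 with 3 or more. Wif1, a secreted Wnt inhibitor of the metaphyseal stroma, went the other way, at 267 ± 92.9, 97.7 ± 56.1, 94.0 ± 24.7 and 52.2 ± 24.7 CPM. Spp1, the bone matrix protein osteopontin, stood at 2969 ± 699 CPM without Cbln1 and at 1479 ± 427 with 3 or more UMIs. Kitl changed less, from 2665 ± 124 to 3263 ± 332 CPM. Adh1 was at 31.9 ± 5.86 CPM with none and at 52.1 ± 9.23, 71.6 ± 15.8 and 51.4 ± 15.5 CPM in the classes above. The spread over libraries includes the genotype, and the median depth went from 6050 UMIs without Cbln1 to 7395 with 3 or more.

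**Figure D2:**
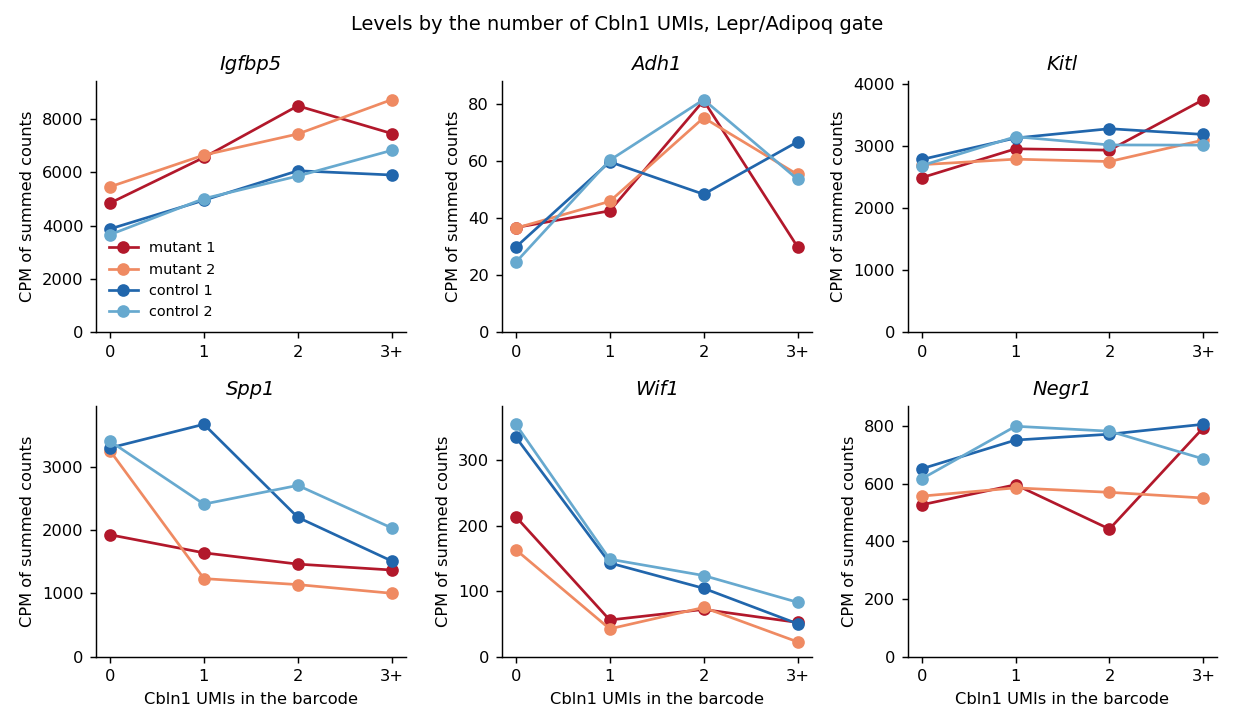
CPM of 6 genes (y axes, from 0) in barcodes of the Lepr/Adipoq gate summed by their number of Cbln1 UMIs (x axis, 3+ is 3 or more), 1 line per library. Wif1 falls in every library from 0 to 1 Cbln1 UMI, where it stands at 163 to 355 CPM without Cbln1, and Igfbp5 is higher in every library from 1 UMI on than at 0.

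Members and Cbln1-negative barcodes of the same library were compared to ask what else sets the members apart. Counts were summed per class and library and tested with the library as a block, for genes other than Cbln1 and those of the reticular gate. Ptchd1, Crym and Slco2b1 rose most among the named genes and Kcnk2, Nav2 and Wif1 fell most, and 7 of 12 acute-phase genes were higher and 9 of 13 osteogenic genes lower in members. Of 5319 genes tested, 44 (0.827%) were higher and 50 (0.94%) were lower by both an adjusted p no greater than 0.05 and a change of 0.5 or more on the log2 scale (edgeR's quasi-likelihood test, Benjamini-Hochberg adjustment). At the adjusted p alone, 261 were higher (4.91%) and 193 lower (3.63%), and single genes of the lists were judged by it. The median log2 fold change of all genes was -0.00249. Markers of other cell types moved with the classes: 3 of 4 tested hemoglobin genes were lower in members (median -0.54), as was Col2a1 among 3 tested chondrocyte markers. The barcode filter had capped hemoglobin at 5% of UMIs, so the hemoglobin values are a description. Erythroid markers summed to 947 to 1031 CPM in mutant and 576 to 582 CPM in control members, against 1030 to 1149 and 920 to 1044 CPM in negatives. Chondrocyte markers summed to 851 to 1449 and 1420 to 3336 CPM in members, against 2392 to 4045 and 1733 to 2144 CPM in negatives. Their part in the differences was not tested.

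The largest rise among the named genes was that of Ptchd1, a patched-domain membrane protein known for its part in autism. In members Ptchd1 stood at 85.5 and 98.6 CPM in the mutant libraries and at 240 and 182 CPM in the controls, against 30.7, 43.2, 101 and 97.7 CPM in the negatives of the same libraries. The members were higher in every library, as was required for naming the largest calls. The log2 fold change was 1.12 (standard error 0.0783, adjusted p = 6.87e-08). Crym, a thyroid hormone-binding crystallin, stood at 32.8, 40.1, 55.9 and 60.2 CPM in members and at 14.1, 22.2, 28.5 and 26.4 CPM in negatives, in the order mutant 1, mutant 2, control 1 and control 2. Its log2 fold change was 1.05 (adjusted p = 1.79e-06). Slco2b1, an organic anion transporter, differed by 1.03 (adjusted p = 2.59e-06).

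Serpina3n, an acute-phase protease inhibitor, was at 146, 164, 176 and 182 CPM in members and at 74.5, 73.4, 99.8 and 95.6 CPM in negatives, and no member sum overlapped a negative sum. The log2 fold change was 0.93 (adjusted p = 9.17e-08). Phex, an endopeptidase of phosphate control better known from osteocytes, stood at 178, 164, 142 and 144 CPM against 106, 95.5, 73.1 and 68.5 CPM (log2 fold change 0.91). Wwc1, the Hippo pathway scaffold KIBRA, differed by 0.94, with adjusted p = 1.68e-05. Transcription regulators were among the genes that rose, with Prdm16, a regulator of brown fat identity, at a log2 fold change of 0.88 and Foxp2 at 0.81. Apod, a lipid-binding lipocalin, differed by 0.83, Ddit4l, an inhibitor of mTOR signalling, by 0.79 and Kcnab1, a potassium channel subunit, by 0.74. Each of these genes was higher in the members of 4 of 4 libraries, which was a condition for naming the largest calls.

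The genes that fell most were Kcnk2, a potassium channel, Nav2, a cytoskeleton-associated neuron navigator, and Wif1. Kcnk2 stood at 14.9, 37.6, 37.5 and 26.3 CPM in members and at 75.9, 106, 162 and 162 CPM in negatives, so that the sums did not overlap, with a log2 fold change of -2.21 (standard error 0.117, adjusted p = 1.71e-09). Nav2 differed by -2.16 and Wif1 by -1.63 (adjusted p = 1.71e-09 and 9.23e-10). Alpl, the phosphatase needed for mineralization, stood at 31.8, 26.3, 76.3 and 83.7 CPM against 131, 131, 187 and 225 CPM (-1.55 on the log2 scale). Limch1, an actin-binding protein, fell by 1.36 on the log2 scale, Mmp13, a collagenase, by 1.10 and Ncam1, the neural cell adhesion molecule, by 0.87. Slc20a2, a phosphate transporter, fell by 1.42, Kcnq3, a potassium channel, by 1.04, Col8a1 by 0.98 and Cldn10, a claudin, by 0.82.

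**Figure D3:**
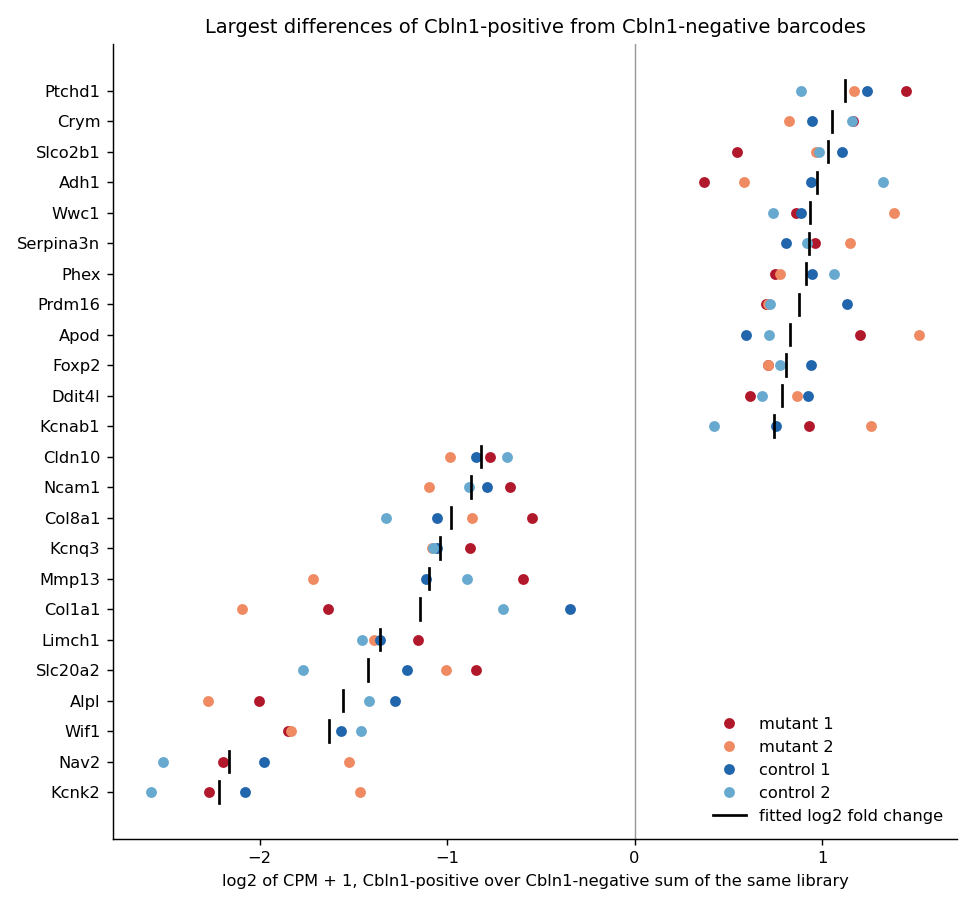
Log2 of the ratio of CPM + 1 between the Cbln1-positive and the Cbln1-negative sum of the same library (x axis), 1 coloured point per library and a black bar at the fitted log2 fold change, for the 12 named genes with the largest rise and the 12 with the largest fall. All points lie right of 0 for the genes that rose and left of 0 for those that fell, because genes were named on that condition. Col1a1 has the widest spread of the genes shown.

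The difference in Col1a1, the main collagen of bone, rested on few barcodes. It stood at 257, 235, 746 and 545 CPM in members and at 800, 1007, 945 and 889 CPM in negatives (log2 fold change -1.14, adjusted p = 5.81e-04). With the marked doublets left out the log2 fold change was -0.05 (adjusted p = 0.716). In the negatives of the mutant libraries the 5 richest barcodes held 73.9% and 75.5% of the Col1a1 UMIs.

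Described by list, bone genes differed in both directions. Of 13 osteogenic genes tested, 9 were lower in members (among them Alpl, Spp1, Col1a1, Dlx5, Pth1r, Wif1, Limch1 and Sparc) and 2, Phex and Ibsp, were higher, with a list median of -0.57. Ibsp, bone sialoprotein, was at 2647, 2597, 3440 and 3576 CPM in members and at 2060, 2063, 2644 and 2494 CPM in negatives (log2 fold change 0.39). All 5 tested markers of metaphyseal stroma (Wif1, Spp1, Alpl, Limch1 and Kcnk2) were lower, and all but Kcnk2 were already counted in the osteogenic list. Summed over the whole list of 8 metaphyseal markers, members stood at 1433 to 1836 CPM in mutants and 2867 to 3309 CPM in controls, and negatives at 2768 to 4129 and 4681 to 4846 CPM.

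The acute-phase and inflammatory list had 12 tested genes, of which 7 were higher in members (Hp, Kng1, Kng2, C4b, Serpina3n, Il1rn and Il1r1) and none was lower, with a median of 0.28. Hp, haptoglobin, stood at 5961, 5321, 5035 and 5208 CPM against 3901, 4146, 3872 and 4078 CPM (log2 fold change 0.42, adjusted p = 7.49e-05). Of 16 adipo-lineage genes 5 were higher (Cebpd, Lpl, Prdm16, Agt and Esm1), and of 7 retinoid genes 3 were, Rarres2 and the members' own markers Adh1 and Aldh1a2, which were known from these data to be higher. Of 15 hematopoietic niche factors, Kitl (0.20), Il34 (0.32), Angpt1 (0.23) and Vegfa (0.30) were higher and Spp1 (-0.64) was lower. None of 12 interferon response genes passed in either direction. Of 19 immediate early and stress genes 2, Fosb and Btg1, were lower, of 9 hypoxia and glycolysis genes only Vegfa was higher, and the 9 basement membrane genes gave Nid1 and Nid2 higher and Hspg2 lower.

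Of 15 IgLON and related neural adhesion genes 3 were tested, with Negr1 higher and Ncam1 lower in members. Crim1 and Wwc1 were higher and Amotl1 and Rbms3 lower among 16 YAP1/TAZ targets, Igfbp5 alone was higher among 10 genes of the IGF axis, and of 19 fibrosis genes Ltbp2 was higher and Tnc, S100a6, Fap and Sparc lower. Tnc stood at 0.049 without barcodes holding Wif1, Kcnk2 or Alpl, and Sparc was higher in the members of control library 2 (3407 against 3199 CPM). The markers that gave the members their label were known from these data, so their differences are a description. They were 0.52 for Igfbp5, 0.97 for Adh1, 0.29 for Aldh1a2 and 0.20 for Negr1 on the log2 scale.

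Metaphyseal transcripts were found in more of the negatives than of the members. A UMI of Wif1, Kcnk2 or Alpl was present in 37.2% and 38.8% of mutant members and 42.7% and 52.2% of control members, and in 51.0%, 49.4%, 64.0% and 64.3% of negatives. With all such barcodes left out, in an alternative chosen after seeing the data, 11 genes were higher and 17 lower. All 44 genes higher in the full comparison still had a positive log2 fold change there, with a median of 0.40, and 15 of them an adjusted p of at most 0.05. Ptchd1 (0.67), Serpina3n (0.67), Phex (0.61) and Foxp2 (0.43) were among those 15. Of the 50 lower genes 34 were still tested, with a median of -0.40, 12 kept their direction with an adjusted p within 0.05, and Col1a1 turned to 0.0392.

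The members of mutant and control libraries were then compared to ask how loss of Lats2 in ECs bears on them. The leading change was in Grid1, the delta-type glutamate receptor to which cerebellins are known to bind. Of the gene lists, 8 of 12 osteogenic genes were lower in mutants, and 13 of 19 immediate early and stress genes, 6 of 10 hypoxia and glycolysis genes and 10 of 17 fat-lineage genes were higher. The medians of these lists had the same signs in the negatives, as given below. Of 5571 genes tested in members, 38 (0.682%) were higher and 32 (0.574%) lower, which makes 70 calls. A call needed both an adjusted p no greater than 0.05 (edgeR) and a change of 1 or more on the log2 scale. At the adjusted p alone 417 were higher (7.49%) and 381 lower (6.84%), and the median of all genes was 0.000663.

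Grid1 (chromosome 14 of GRCm39, 34541769 to 35305336, on the chromosome of Lats2) had 12 and 3.5 estimated UMIs over all members of the mutant libraries and 400 and 358 in the controls. That is 11.9 and 2.93 CPM in mutants and 118 and 112 CPM in controls, or 7.43 ± 6.37 and 115 ± 4.26 CPM (SD, n = 2). The mutant sums were far below the control sums, with a log2 fold change of -3.94 (standard error 0.248, adjusted p = 4.16e-09). A Grid1 UMI was counted in 7 of 145 and 1 of 170 mutant members and in 115 of 487 and 107 of 454 control members. The log2 fold change lay between -5.05 and -3.25 under 15 alternatives, with an adjusted p of at most 0.05 in each. In the negatives Grid1 stood at 6.28, 2.15, 101 and 103 CPM (log2 fold change -4.62), and the difference of the effect between the classes was 0.68 (adjusted p = 0.849).

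Among other gates, Grid1 was counted in control barcodes with Cxcl12 and no Adipoq, at 25.4 and 43.1 CPM, and at 0 in the same gate of both mutants. The mutant gates held only 94 and 114 barcodes, of which 3 counts would be 3.19% and 2.63%. A Grid1 UMI was counted in 9.32% and 11.7% of the 311 and 283 control barcodes. In the Wif1 gate without Adipoq Grid1 stood at 0.418 and 0.448 CPM in mutants and 4.51 and 2.92 CPM in controls. In the cartilage gate it was at 0.305 and 0.460 CPM in mutants and 0.473 and 0.235 CPM in controls. Of the 13 listed genes of the cerebellin system, Grid1 was the 1 that could be tested. Cbln2, another cerebellin, was at 0.994 to 4.18 CPM, and Cbln4, C1ql1, C1ql2 and C1ql4 had no UMI in the members. Of 206 tested genes on chromosome 14, Grid1 and Klf12 were the 2 called in members, that is 2.86% of all 70 calls against 3.70% of all genes tested. In the negatives 3 of 58 calls lay on it (Grid1, Klf12 and Tnfsf11), 5.17% against 3.74% of the genes tested.

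Other genes fell in both mutant libraries. C6, a complement component, stood at 15.9 and 19.2 CPM in mutant members and at 82.7 and 71.5 CPM in controls (log2 fold change -2.09, adjusted p = 1.44e-06). Clstn2, a calsyntenin of synaptic membranes, was at 29.8 and 23.4 CPM against 91.6 and 80.9 CPM (log2 fold change -1.67, adjusted p = 3.78e-06). Both groups stood apart for each of these genes, which was a condition for naming the largest calls. Slco2b1 was at 15.9 and 19.2 CPM in mutants and 53.8 and 58.3 CPM in controls (-1.62), and Ptchd1 at 85.5 and 98.6 against 240 and 182 CPM (-1.15, adjusted p = 1.66e-05). These 2 genes were thus higher in members than in negatives in every library, and lower in mutant than in control members.

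Of the other named genes that fell, Rgs7bp, a membrane anchor of G protein regulators, differed by -1.59 on the log2 scale, Chl1, a neural adhesion molecule of the L1 family, by -1.47, Gpr176, an orphan receptor, by -1.32 and Grm7, a metabotropic glutamate receptor, by -1.17. Klf12, a transcription repressor, fell by 1.38 and Ildr2, an immunoglobulin-like receptor, by 1.45. Their adjusted p lay between 2.50e-06 and 1.77e-04. Negr1 stood at 615 and 572 CPM in mutant members and at 768 and 769 CPM in controls (-0.34, adjusted p = 0.00627).

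Among the genes that rose, Aass, an enzyme of lysine breakdown, stood at 47.7 and 71.0 CPM in mutant members and at 8.57 and 8.46 CPM in controls (log2 fold change 2.85, standard error 0.233, adjusted p = 1.74e-07). Fos, the immediate early transcription factor, stood at 1033 and 973 CPM against 442 and 462 CPM (1.18, adjusted p = 7.97e-09). Cdkn1a, the cell cycle inhibitor p21, was at 104 and 86.1 CPM against 39.9 and 41.4 CPM (1.25, adjusted p = 9.97e-06). The mutant sums of these 3 genes lay above both control sums, which the naming of the largest calls required. Nfe2l3 (1.61), the kinase gene Pim3 (1.36), the mitophagy receptor Bnip3 (1.34), Fabp4, a fatty acid-binding protein (1.27), and Avil, an actin-binding advillin (1.23), rose as well. Aass and Bnip3 differed in the same direction in the empty droplets, by 2.79 and 3.09. C1qtnf5 and Mfrp, both at 1.29, overlap on chromosome 9 and had nearly the same counts, so they are not separate findings. Ddit3 is split over identifiers and is likewise uncertain.

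**Figure D4:**
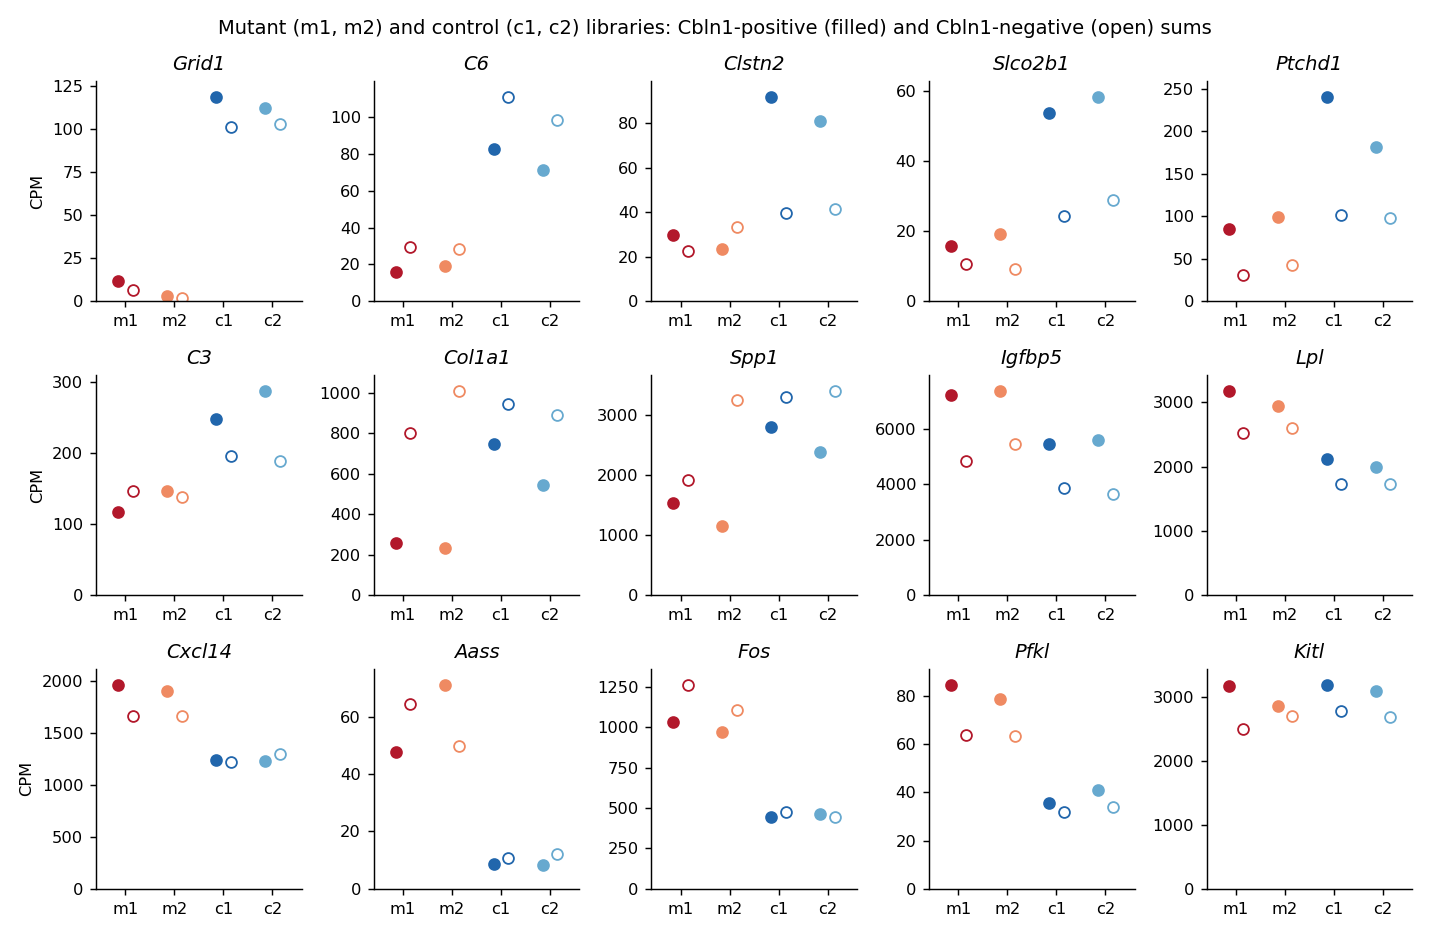
CPM (y axes, from 0) of 15 genes in the 2 mutant (m1, m2) and 2 control (c1, c2) libraries, with filled points for Cbln1-positive and open points for Cbln1-negative sums. Grid1 is at most 11.9 CPM in mutants and at least 101 CPM in controls in both classes, and Kitl overlaps between genotypes. The Col1a1 sum is low in the mutant positives alone, but a few barcodes hold most of its UMIs in the mutant negatives. A Col1a1 UMI was counted in 55.1% to 61.1% of barcodes over both mutant classes and in 86.6% to 88.7% over both control classes.

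Between genotypes, most of the osteogenic genes tested were lower in mutant members. Of 12 osteogenic genes tested 8 were lower in mutants (among them Runx2, Ibsp, Spp1, Col1a1, Col1a2, Wif1 and Limch1) and none was higher, with a median of -0.41. In the negatives 7 of 14 were lower and 1 higher, with a median of -0.31. In members Col1a1 fell by 1.36 (257 and 235 against 746 and 545 CPM, adjusted p = 4.24e-07) and by 0.81 with the marked doublets left out. Spp1 stood at 1530 and 1152 CPM in mutants and at 2807 and 2381 CPM in controls (log2 fold change -0.92, adjusted p = 5.31e-06). Free transcripts of bone cells differed between the genotypes, and the summed osteoblast markers stood at 7219 to 7632 CPM in empty droplets of mutants and 19921 to 21096 CPM in those of controls. With free transcripts subtracted the log2 fold change was -0.98 for Col1a1 (adjusted p = 0.0266) and -0.97 for Spp1 (adjusted p = 3.64e-05).

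Fat-lineage genes went the other way. Of 17 tested, 10 were higher in mutant members (Cebpa, Cebpb, Cebpd, Lpl, Apoe, Plin2, Fabp4, Ebf2, Agt and Esm1) and 2, Ebf1 and Ebf3, were lower, with a median of 0.45. In the negatives 7 of 16 were higher and 2 lower, with a median of 0.21. In members Lpl, lipoprotein lipase, stood at 3175 and 2952 CPM in mutants and at 2125 and 1995 CPM in controls (log2 fold change 0.61, adjusted p = 8.29e-06). Ebf3 was at 1964 and 1987 CPM in mutants and at 2781 and 2766 CPM in controls (-0.45, adjusted p = 1.06e-04). Pparg, the master regulator of fat cells, was at 287, 347, 294 and 255 CPM with overlapping groups and an adjusted p of 0.115. The members' own markers Igfbp5 (0.43, adjusted p = 7.99e-05) and Aldh1a2 (0.36, adjusted p = 0.0359) rose, while Adh1 was at 47.7 and 55.2 CPM against 58.2 and 63.0 CPM (-0.19, adjusted p = 0.443).

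Niche factors moved in both directions. Kitl stood at 3162 and 2860 CPM in mutant members and at 3183 and 3093 CPM in controls (log2 fold change -0.03, standard error 0.0683, adjusted p = 0.838). Cxcl14, a chemokine, was at 1966 and 1910 against 1241 and 1234 CPM (0.68, adjusted p = 2.36e-06), and Tnfsf11, the osteoclast factor RANKL, rose by 0.73. Vegfa (0.61) and Vcam1 (0.25) rose too, while Spp1, Vegfc (-0.48), Il34 (-0.32) and Csf1 (-0.28) fell, which makes 4 of 15 in each direction. In the IGF axis Irs2 (1.07), Igfbp4, Igfbp5 and Igfbp7 rose, and Igf1 (224 and 217 against 335 and 340 CPM, -0.58) and Pappa, the protease that frees IGF from its binding proteins (-0.48), fell, of 11 tested. Of 8 retinoid genes tested Dhrs3, Aldh1a2 and Rarres2 rose.

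Many stress and glycolysis genes rose. Of 19 immediate early and dissociation stress genes tested, 13 were higher in mutant members and none was lower, with a median of 0.49, and Ier3 (1.17), Gadd45b (1.06), Btg2 (1.03) and Fosb (1.00) changed most beside Fos. The rise was not particular to members: in the negatives 15 of 19 were higher and none was lower, with a median of 0.997. In empty droplets Fos differed by 1.03 in the same direction, and the mitochondrial share of members was higher in mutants as given above. Their part in the result was not tested. Of 10 hypoxia and glycolysis genes 6 were higher (Vegfa, Bnip3, Pfkl, Pgk1, Eno1 and Ldha) with a median of 0.62, among them Pfkl, a phosphofructokinase, at 84.5 and 78.6 against 35.5 and 41.1 CPM (1.12, adjusted p = 4.46e-05). In the negatives 9 of 10 were higher and none was lower, with a median of 0.76.

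Complement C3 stood at 116 and 146 CPM in mutant members and at 248 and 287 CPM in controls (log2 fold change -0.98, adjusted p = 1.66e-05). With it, Ccl2 and Il1r1 were lower and Kng2, C4b and Serpina3g higher among 12 acute-phase genes. Among 16 YAP1/TAZ targets Ccn1 (350 and 347 against 202.5 and 229 CPM, 0.73), Ccn2 (0.66) and Wwc1 (0.56) rose and none fell, with a median of -0.11. Of 19 fibrosis genes Tgfb1 and Vim rose and Tnc, Timp1, Fap and Fn1 fell. The fall of Fn1 rested on few barcodes, and it turned to a rise without the marked doublets, as given below. Of 12 interferon genes Ifi35 and Psmb8 rose and Gbp7 fell (Ifi35 at -0.0013 without barcodes holding Wif1, Kcnk2 or Alpl), and of 9 basement membrane genes Nid1 rose and Lama4 fell. All 4 tested hemoglobin genes, whose sum the barcode filter had capped, were higher in mutant members (0.56 to 0.96). Their log2 difference was 1.68 to 2.29 in the empty droplets, and all 4 turned lower with free transcripts subtracted.

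**Figure D5:**
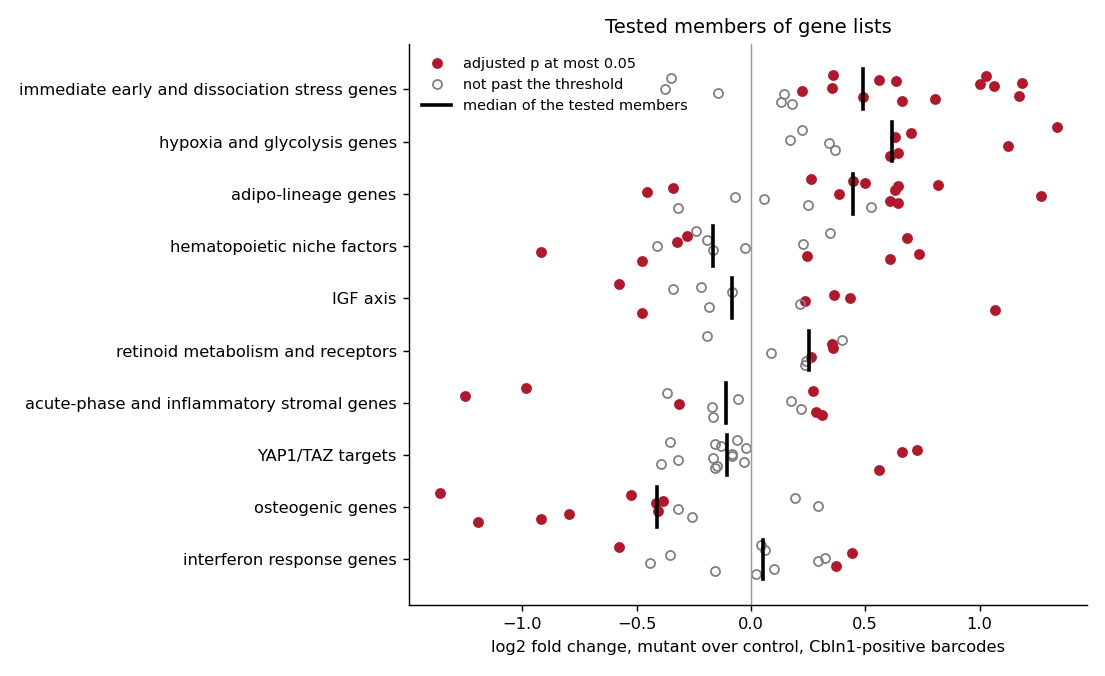
Log2 fold change of mutant over control members (x axis) for the tested genes of 10 lists, filled where the adjusted p is at most 0.05, with a black bar at each list's median. The immediate early, hypoxia and fat-lineage lists have medians of 0.49, 0.62 and 0.45, and the osteogenic list one of -0.41.

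Some of these calls rested on few barcodes. Between 2 and 8 members a library had at least 20 UMIs of Col2a1, the collagen of cartilage, and they held 72.4% to 90.4% of all Col2a1 UMIs of the members. Prg4, the lubricin of joint surfaces, stood at 365 and 56.8 CPM in mutants and at 369 and 1395 CPM in controls, with 27.9% to 96.8% of its UMIs in 5 barcodes. Its log2 fold change was -2.07 with all members and 1.78 with the marked doublets left out. Fn1, fibronectin, turned from -1.14 to 1.55 in the same way, and Ppa1 from -2.17 to -0.07 (adjusted p = 0.843). Cytl1, a cartilage cytokine (1.21), had 69.2% to 89.5% of its UMIs in 5 barcodes. Of the 70 calls, 63 were still tested without the marked doublets, and 59 kept their direction with an adjusted p within 0.05. In DESeq2 all 70 were tested, and 46 kept their direction with an adjusted p within 0.05.

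The negatives had 42 genes higher (0.793%) and 16 lower (0.302%) in mutants of 5296 tested, and 8.72% higher and 8.31% lower at the adjusted p alone. Whether the genotype effect differed between members and negatives was tested by the interaction, and at the threshold 1 gene was higher (0.0176%) and 1 lower (0.0176%) of 5667. At the adjusted p alone 0.0353% were lower, and DESeq2 gave 0 higher and 1 lower at the threshold. The gene with the lower genotype effect in members was Col1a1, which fell in members (-1.36) and stood at 800 and 1007 against 945 and 889 CPM in negatives (0.02, adjusted p = 0.922). The interaction of Col1a1 was -1.35 (adjusted p = 0.00724), and -0.09 (adjusted p = 0.906) with the marked doublets left out. Without the marked doublets 37 genes had an interaction with an adjusted p within 0.05, of which 5 were higher and 32 lower. A negative value is a genotype effect lower in members than in negatives, not a lower level. The largest of these were negative and included cartilage genes, Cytl1 (-2.34), Col2a1 (-2.12) and Chad (-1.69), with Snorc (-1.04), Comp (-1.03) and Col11a1 (-0.82). Their part in the other differences was not tested. Others were the immediate early genes Dusp1 (-0.75), Jun (-0.41) and Junb (-0.38), C3 (-0.66) and Ccn2 (0.67), and all of these genes were named after their values were seen. With all barcodes kept, Dusp1, Jun and Junb were higher in mutants in both classes. Beside Col1a1, the effects in members and negatives were -2.09 and -1.81 for C6, 0.61 and 0.61 for Lpl, 0.43 and 0.49 for Igfbp5 and 1.18 and 1.40 for Fos, with interactions that did not pass the test. For Clstn2 the members fell by 1.67, and its levels in negatives were 22.6 and 33.4 against 39.9 and 41.7 CPM, with an interaction of -1.18 (adjusted p = 0.308), and of -1.05 (adjusted p = 0.0362) without the marked doublets.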

How the data were processed

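Droplet scRNA-seq (10x Chromium v3) was analysed from 4 libraries. The deposited values are expected counts of UMIs, unnormalized and for all barcodes. The authors divided multi-gene reads by expectation maximization, so 9.09% to 9.95% of nonzero values are fractional, and counted introns too. The submitters' processing notes name cutadapt 3.5 and STARsolo 2.7.10a, and reads were aligned to GRCm39. Barcodes were filtered and gated by the rule given in the report. The deposited counts were summed per library and class, rounded, and tested with edgeR 4.0.16 (quasi-likelihood, TMM, R 4.3.3) on genes past filterByExpr that were detected in 20% or more of the barcodes of either group compared. DESeq2 1.42.0 was an alternative, and low genes are tested only in the fit without the filter. Standard errors come from the fold change and F. Single list genes were judged by adjusted p alone. Doublets were marked by an own scorer at 0.8% per 1000 barcodes. Free RNA was estimated from empty droplets of 10 to 100 UMIs. Gene positions come from GENCODE M39 (GRCm39). In simulated counts, 73% and 99% of genes changed by 0.75 and 1.5 log2 units between genotypes in the members were recovered over 5572 genes.

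The members, gene lists and tests were chosen with earlier results of these data known. Named are the 12 largest calls in each direction that moved alike in every library, without predicted genes and ribosomal copies, and up to 6 tested genes of each list. The labels tie no library to 1 animal, so p-values measure the spread between these libraries. A few genes of the lists are not reported here. Python 3.11.15, numpy 2.4.6, scipy 1.17.1, pandas 2.3.3 and scikit-learn 1.9.0 were used.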

Additional observations from a re-analysis of the deposited data

Results flagged for a closer look

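With all barcodes kept, for 3 genes the effect of genotype differed between Cbln1-positive and Cbln1-negative barcodes by the test of the difference itself (edgeR interaction, adjusted p of at most 0.05). Col1a1 differed by -1.35 (adjusted p = 0.00724). It was -0.09 with the marked doublets left out and 0.12 without barcodes holding Wif1, Kcnk2 or Alpl. Hbb-bt, a hemoglobin gene, differed by 1.01 (adjusted p = 0.0303) and by 0.28 without the marked doublets (adjusted p = 0.647). Hemoglobin was capped by the barcode filter, so its value is a description. Erythroid markers summed to 43884 to 45637 CPM in empty droplets of mutants and 10385 to 11502 CPM in those of controls. Zfp36, which destabilizes inflammatory transcripts, differed by -0.811 (adjusted p = 0.0366), with members at 150 and 120 CPM in mutants and 132 and 109 CPM in controls, and negatives at 229.5 and 214.5 against 122 and 106 CPM. Zfp36 kept an adjusted p of 0.011 without the marked doublets, and its adjusted p exceeded 0.05 in all 4 fits that lacked 1 library. With the marked doublets left out, 37 genes met the same adjusted p, 5 higher and 32 lower, Zfp36 among them. The largest included cartilage genes, with Cytl1 at -2.34, Col2a1 at -2.12 and Chad at -1.69. The causes of these differences were not tested.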

How the results depend on the processing

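With each library left out in turn, the genes higher and lower in members than in negatives numbered 47 to 54 and 45 to 64, those between genotypes in members 33 to 49 and 31 to 42, those in negatives 26 to 58 and 16 to 24, and those of the interaction 0 and 0 to 2. The share of the gate differed by 4.10 to 5.80 points, that of all barcodes by -4.24 to -3.79, and Cbln1 over the gate by 0.33 to 0.49. Without the filter on low genes the counts of higher and lower genes were 135 and 256 between classes, 135 and 87 in members, 161 and 77 in negatives, and 4 and 7 for the interaction. DESeq2 gave 23 and 22 in members and 0 higher for the interaction. At 2 or more Cbln1 UMIs, 73 genes were higher in members, 2 were higher in the interaction, and the shares differed by 2.14 and -1.77 points. Between genotypes in members 49 genes were higher and 36 lower there, of which 19 and 23 were also called with all members kept. Similar counts therefore need not stand for the same genes. With doublets left out the interaction had 0 and 10, and the share of all barcodes differed by -3.59 points. With stricter filters (2000 UMIs, 10% mitochondrial) that share differed by -4.38 points and 2 genes were lower in the interaction. Thinned to 3000 UMIs, 16 and 26 genes were called between classes, with fewer genes tested (2555), and the share of the gate differed by 3.91 points.

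Chosen after seeing the data, leaving out barcodes with Wif1, Kcnk2 or Alpl gave 11 and 17 between classes, 27 lower in negatives and 5 lower in the interaction. There Col1a1 between classes was 0.0392 and in the interaction 0.12, Tnc between classes 0.049, Prg4 between genotypes 0.46, Fn1 0.89 and Ifi35 -0.0013. Prg4 turned to 1.78 and Fn1 to 1.55 without doublets, and Fn1 to 1.47 at 2 Cbln1 UMIs and to 0.77 without barcodes of at least 20 Col2a1 UMIs. With free RNA subtracted, Hbb-bs, Hbb-bt, Hba-a1 and Hba-a2 turned to -0.77, -2.99, -1.05 and -0.71 in members. The cause of each of these was not tested.

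The labels do not say whether the replicate numbers 1 and 2 pair the libraries. The deviations of equally numbered libraries correlated at -0.0304 in members and -0.0863 in negatives over genes. With 2 libraries a genotype, this cannot tell whether equally numbered libraries were paired. With the number as a replicate block, 38 and 32 genes were called in members and 43 and 17 in negatives, and Cbln1 over the gate stood at 0.41. The 2 libraries a genotype and the 145 members of the smallest library limit the depth.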
